A study of Homo sapiens with 12 samples.

Results

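The collagen genes are the human genes that encode the alpha chains of the collagens. They were taken as the protein-coding genes whose symbol is COL, a number, A and a number, and 44 of the 58051 genes in the count files fit this pattern. The 44 genes comprised 11 chains of the fibrillar collagens, 6 chains of type IV collagen of the basement membrane and 27 other chains. Within the other chains, 5 belonged to the beaded filament collagen VI and its relatives, 1 to the anchoring fibrils, 3 to the short-chain networks, 10 to the fibril-associated collagens (FACIT), 2 to the multiplexins, 4 to the transmembrane collagens and 2 to collagens of another structure.

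The RNA came from FaDu cells, a line from a squamous cell carcinoma of the hypopharynx, and from Cal27 cells, a line from a squamous cell carcinoma of the tongue, both with the genotype given as WT. Each line was sequenced as parental cells, as cells selected in rising doses of afatinib (AfaR), an irreversible inhibitor of the ERBB receptor family, and as cells selected in rising doses of erlotinib (ErlR), an inhibitor of the epidermal growth factor receptor, with 2 biological replicates in each of the 6 groups. By the study's methods the resistant cells were kept under selection and then grown without drug for a day before experiments, and each resistant model is a single selected population, so that a difference between populations and an effect of the drug selection cannot be told apart. The comparisons ask how collagen mRNA differs between resistant and parental cells of each line.

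The 12 libraries of poly(A)-selected RNA held 16334937 to 23399259 read counts on genes, and the ERCC spike-in RNA added to each library took 3.86% to 5.82% of the counts. The labels do not say whether replicates came from separate cultures, so p-values measure the spread between these libraries. All 10 markers of squamous epithelium (KRT5 and TP63 among them) had a mean of at least 1 CPM, a gene's read count scaled to the size of its library, in each of the 6 groups. In bulk RNA of this kind, fewer cells of a type and less RNA per cell cannot be told apart. One date was given as the batch of all 12 libraries.

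Collagens are secreted or membrane proteins in which alpha chains wind into a triple helix rich in glycine, proline and hydroxyproline. Fibrillar collagens form the fibrils of connective tissue, and fibroblasts are their main source. Type IV collagen forms the network of the basement membrane on which epithelial cells sit, and type XVII collagen anchors keratinocytes to it as part of the hemidesmosome. Carcinoma cells can make collagens of both kinds.

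Levels are CPM scaled with the TMM method, which sets the libraries on a common scale by assuming that most genes are unchanged. Of the 44 collagen genes, 25 passed the filter on low counts in FaDu cells, 26 in Cal27 cells and 21 in both, whereas 14 passed in neither line. COL19A1 had no count in any library, and 16 genes stayed below 1 CPM in every library. The highest level of a collagen that was not tested was 0.741 CPM in FaDu cells (COL23A1) and 0.864 CPM in Cal27 cells (COL15A1). The genes that failed the filter in both lines were COL2A1, COL4A3, COL6A5, COL6A6, COL10A1, COL9A1, COL14A1, COL19A1, COL20A1, COL21A1, COL22A1, COL15A1, COL23A1 and COL25A1. A group mean of at least 5 CPM was reached by 18 genes.

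**Figure D1:**
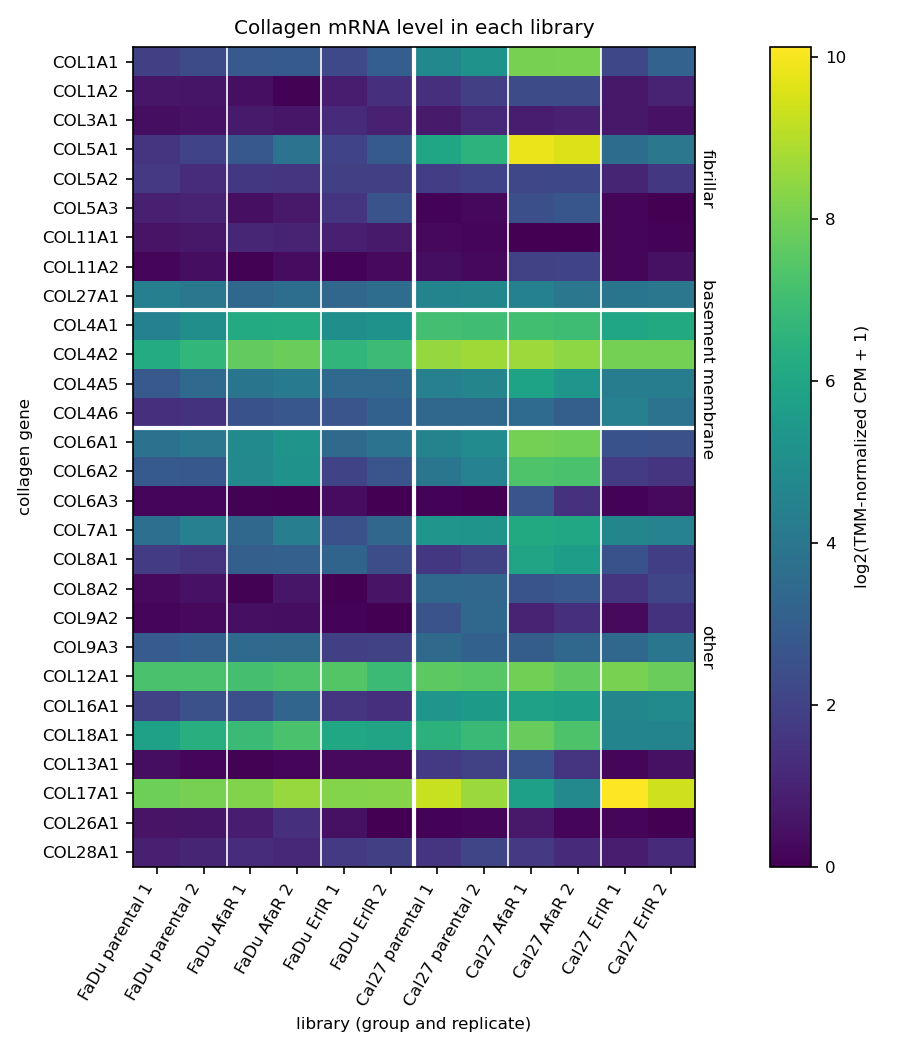
Level of the 28 collagen genes that reached 1 CPM in any library, as log2(TMM-normalized CPM + 1), with genes in rows by class (fibrillar, basement membrane, other) and the 12 libraries in columns, from dark (0) to bright (high). COL5A1, COL1A1, COL6A1, COL6A2 and COL8A1 are brighter in both Cal27 AfaR libraries than in any other library, COL17A1 is darker there than anywhere else, and COL4A2, COL12A1 and COL17A1 are bright in FaDu parental cells.

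In parental cells, summed collagen mRNA was 617 and 731 CPM in the FaDu libraries and 1696 and 1578 CPM in the Cal27 libraries. COL17A1, the hemidesmosome collagen, held the largest share of the sum in both lines, with 37.2% in FaDu and 30.8% in Cal27. Type IV collagen made up 18.7% of collagen CPM in FaDu and 33.7% in Cal27 parental cells, and the fibrillar class 4.20% and 8.44%. Cal27 parental cells had higher levels than FaDu parental cells for 15 collagens and lower levels for 2 of the 30 tested in a fit over all 12 libraries, where 19.1% of all genes were called higher, 12.5% lower and 31.6% in either direction. To be called here and below, a gene needed an adjusted p under 0.05 in edgeR's quasi-likelihood test and a fitted change of more than 1 on the log2 scale. COL5A1 was higher in Cal27 by 4.96 on the log2 scale (SE 0.41, adjusted p = 9.69e-07 by edgeR), COL16A1 by 3.44 and COL1A1 by 3.13, whereas COL5A3 and COL11A1 were lower, at -2.92 and -1.74. FaDu cells were grown in EMEM and Cal27 cells in DMEM, so the line and its medium cannot be told apart.

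**Figure D2:**
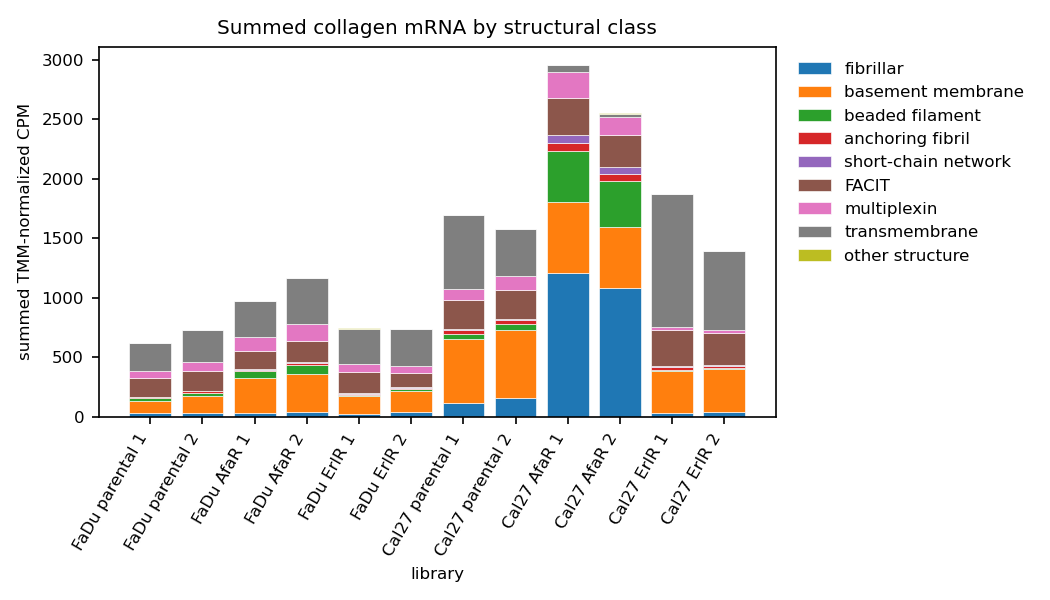
Summed TMM-normalized CPM of the 44 collagen genes in each of the 12 libraries, stacked by structural class. Fibrillar chains sum to 1207 and 1080 CPM in the Cal27 AfaR libraries against 117 and 159 CPM in Cal27 parental cells, and transmembrane chains are the largest class in both Cal27 ErlR bars.

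FaDu AfaR cells had more mRNA of type IV and type VI chains than FaDu parental cells. Of the 25 collagens tested, 8 were higher (COL4A1, COL4A2, COL4A4, COL4A6, COL5A1, COL6A1, COL6A2 and COL8A1) and none was lower. Among all 15092 genes tested, 6.48% were called higher, 0.954% lower and 7.43% in either direction. The median log2 fold change of the 25 collagens was 0.92 and that of all genes was -0.00. No collagen was lower at an unadjusted p under 0.05 with a log2 fold change below -1 in edgeR, and DESeq2 called 7 higher and 0 lower, giving no adjusted p for COL4A4. COL4A4 passed the filter on low counts through the AfaR libraries, where it was high, so it had to differ, and its call was lost with each of the 4 omissions of a library. Summed collagen mRNA was 971 and 1166 CPM against 617 and 731 CPM in parental cells. The sum of type IV chains was 298 and 325 CPM against 104 and 148 CPM.

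The number of calls in FaDu AfaR cells changed when single libraries were left out. Without FaDu parental replicate 1, or without FaDu AfaR replicate 2, the calls numbered 3 in place of 8 and were COL4A1, COL4A2 and COL6A2. Without FaDu parental replicate 2 there were 7, with COL5A1, COL8A1 and COL4A4 lost and COL18A1 and COL4A5 gained, and without FaDu AfaR replicate 1 there were 10. Over these omissions the fitted change ranged from 1.20 to 2.38 for COL5A1, from 1.47 to 1.69 for COL4A6, from 0.95 to 1.36 for COL6A1 and from 1.61 to 1.90 for COL8A1. The fibroblast marker list summed to 129 and 213 CPM in FaDu AfaR cells against 81.7 and 98.7 CPM in parental cells, with 2 of its 10 genes at 1 CPM or more and FAP at 0 in both groups. Endothelial markers summed to 6.60 to 20.7 CPM against 3.50 to 6.08 CPM. Of these, CDH5 was at 3.25 and 15.8 CPM in AfaR against 1.36 and 3.59 CPM in parental libraries. The part of these markers in the collagen result was not tested.

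FaDu ErlR cells differed from parental cells in few collagens. COL4A6 and COL8A1 were higher and COL9A3 was lower, 3 of 25 tested, where 1.54% of all genes were called higher, 0.504% lower and 2.05% in either direction. The median log2 fold change was 0.34 over the tested collagens and -0.00 over all genes. Scaled by the ERCC spike-in, which moved the median of all genes to 0.49 in this comparison, 9 collagens were higher and 0 lower. The share of all genes called under that scaling was not taken, so this count cannot be read as a result about collagens. None of the 3 calls stood without FaDu parental replicate 1 or without FaDu parental replicate 2 (0 calls each). COL4A6 remained called without FaDu ErlR replicate 1 and COL8A1 without FaDu ErlR replicate 2, and the log2 fold change ranged over the omissions from 1.64 to 2.17 for COL4A6, from 0.95 to 1.93 for COL8A1 and from -1.39 to -1.18 for COL9A3.

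Cal27 AfaR cells had far more mRNA of fibrillar and type VI chains than Cal27 parental cells and less COL17A1. Of 26 collagens tested, 9 were higher (COL1A1, COL5A1, COL5A3, COL11A2, COL4A5, COL6A1, COL6A2, COL6A3 and COL8A1) and 2 were lower (COL9A2 and COL17A1). Among all 15269 genes, 11.5% were called higher, 8.06% lower and 19.6% in either direction. The median log2 fold change was 0.37 over the tested collagens and -0.00 over all genes. COL5A3, COL6A3 and COL11A2 passed the filter on low counts through the AfaR libraries, where their levels were high, so they had to differ. Summed collagen mRNA was 2961 and 2550 CPM against 1696 and 1578 CPM in parental cells, and the fibrillar share of the sum was 41.5% against 8.44%.

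Markers of squamous epithelium moved in the same libraries. Their sum was 1082 to 1189 CPM in Cal27 AfaR cells against 4186 to 5329 CPM in parental cells, and 8 of the 10 were lower. The fibroblast list summed to 92.9 to 105 CPM against 82.1 to 99.1 CPM, with 4 of its 10 genes at 1 CPM or more. LUM rose from 0.175 and 0.0583 CPM in parental to 42.9 and 24.3 CPM in AfaR libraries, and PDGFRB from 1.81 and 1.46 to 12.7 and 11.8 CPM. PDPN fell from 44.6 and 42.4 to 11.3 and 9.69 CPM. FBLN1 had 596 and 932 counts in parental and 694 and 800 counts in AfaR libraries. The means of FAP, DCN, PDGFRA, MFAP5 and THY1 were at most 0.394 CPM, and TCF21 was at 0 in both AfaR libraries. Endothelial markers summed to 30.2 to 37.4 CPM against 31.7 to 32.7 CPM. The part of these markers in the collagen result was not tested. The calls of COL9A2 and COL4A5 depended on single libraries: COL9A2 was lost without Cal27 parental replicate 2 (-1.98, adjusted p = 0.0526 in edgeR) and without either AfaR replicate, and COL4A5 without AfaR replicate 1, at 0.80.

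Cal27 ErlR cells had less summed mRNA of fibrillar and type VI chains, and less of the multiplexin COL18A1, than Cal27 parental cells. Among the fibrillar chains, 3 of the 8 tested were called lower. Of 26 collagens tested, 10 were lower (COL1A1, COL1A2, COL5A1, COL4A1, COL6A1, COL6A2, COL8A2, COL9A2, COL18A1 and COL13A1) and 0 were higher. Among all 15269 genes, 9.92% were called lower, 3.56% higher and 13.5% in either direction. The median log2 fold change was -0.85 over the tested collagens and -0.03 over all genes. No collagen was higher at an unadjusted p under 0.05 with a log2 fold change above 1 in edgeR, and DESeq2 called 0 higher and 8 lower. Leaving out 1 library ended this count of 0: COL17A1 was called higher without Cal27 parental replicate 1, and COL17A1 and COL4A6 were called higher without Cal27 ErlR replicate 2. Summed collagen mRNA, at 1870 and 1391 CPM, overlapped with the 1696 and 1578 CPM of parental cells, and COL17A1 held 54.5% of it.

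In Cal27 ErlR cells, squamous markers summed to 5260 to 5364 CPM, with 3 of 10 lower, and fibroblast markers to 30.1 to 42.4 CPM, with 3 of the 4 tested fibroblast markers lower than in parental cells. Endothelial markers, of which 2 of 6 reached 1 CPM, summed to 2.68 to 6.48 CPM against 31.7 to 32.7 CPM. CDH5 made up most of the parental sum, at 30.3 and 30.7 CPM against 1.09 and 4.16 CPM in ErlR libraries. PECAM1 was at 1.22 and 1.40 CPM in parental and 1.41 and 1.65 CPM in ErlR libraries. The part of the endothelial and fibroblast markers in the collagen result was not tested. COL4A1 missed the limit on size without Cal27 parental replicate 1 (-0.96) or ErlR replicate 1 (-0.92), and COL1A2 was lost without Cal27 parental replicate 2 (-1.02) or ErlR replicate 1 (-1.17). The comparisons of AfaR and ErlR cells share the parental libraries of their line, so their values are given side by side.

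**Figure D3:**
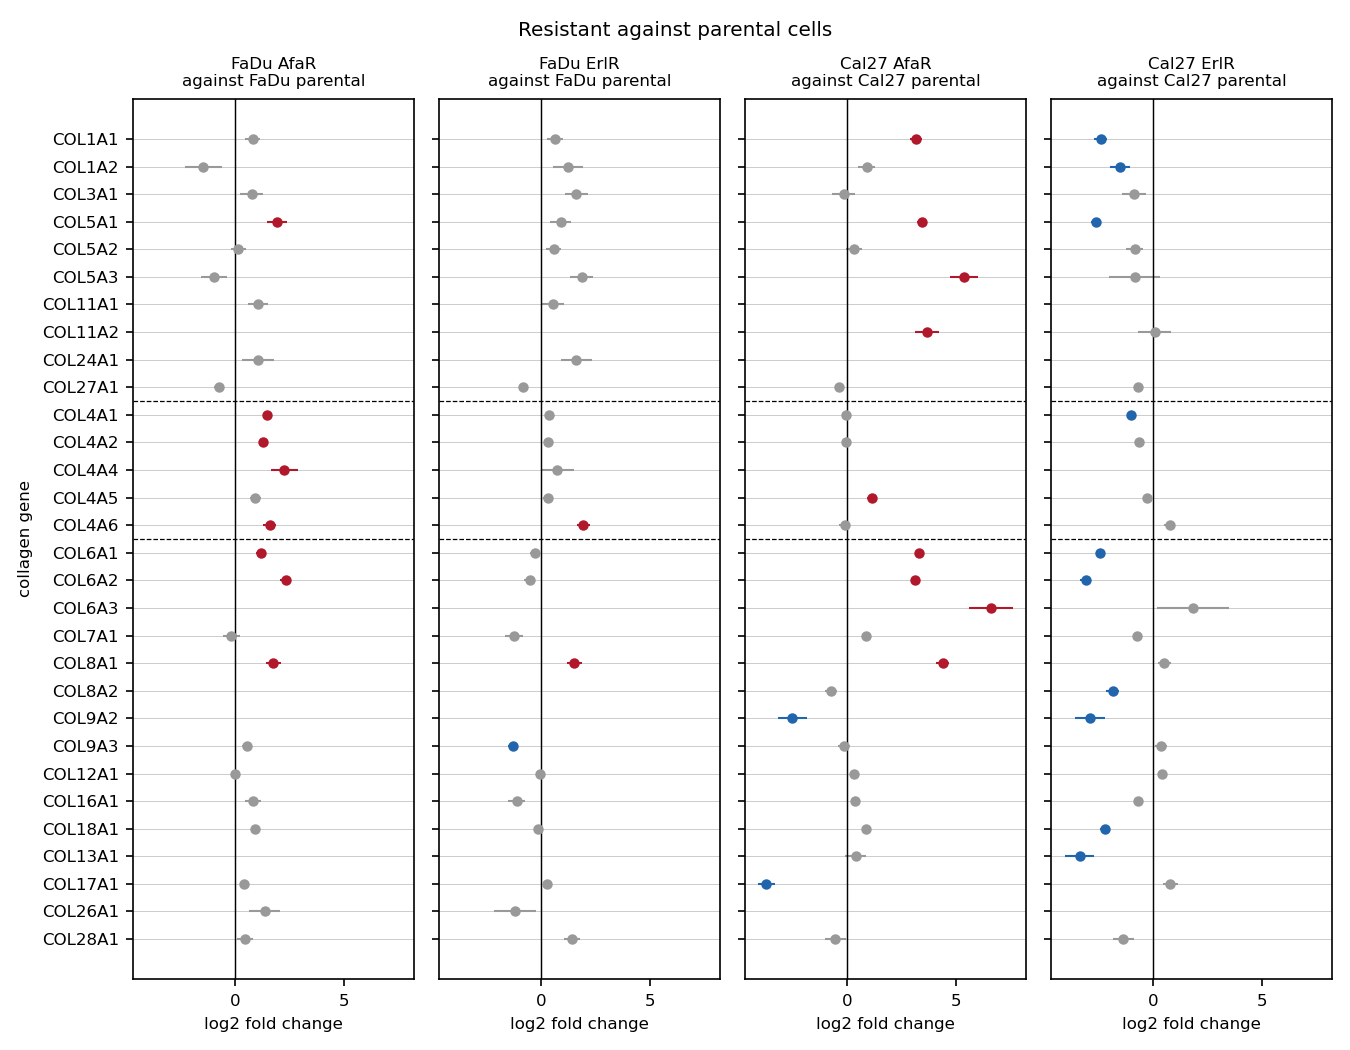
Log2 fold change (points) with its standard error (bars) of each tested collagen gene in the 4 comparisons of resistant with parental cells, from edgeR fits on the 6 libraries of a line. Red points were called higher, blue points lower and grey points were not called; genes without a point did not pass the filter on low counts, and dashed lines part the fibrillar, basement membrane and other classes.

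Compared directly, Cal27 AfaR cells exceeded Cal27 ErlR cells in 16 collagens and had less of COL17A1 (-4.49, SE 0.40), of 26 tested, where 18.2% of all genes were called higher, 8.86% lower and 27.1% in either direction. COL6A2 differed by 6.20 (SE 0.24), COL5A1 by 6.03 (SE 0.26), COL6A1 by 5.72 (SE 0.19) and COL1A1 by 5.55 (SE 0.33) on the log2 scale. Among the 16, COL5A3, COL6A3 and COL11A2 passed the filter on low counts through the AfaR libraries, so they had to differ. FaDu AfaR cells exceeded FaDu ErlR cells in 6 collagens (COL4A1, COL6A1, COL6A2, COL9A3, COL16A1 and COL18A1) and had less of COL1A2 and COL5A3, of 25 tested, where 4.45% of all genes were called higher, 1.50% lower and 5.94% in either direction. In FaDu cells COL1A2 passed the filter on low counts through the ErlR libraries, so it had to differ. The FaDu count fell to 4 without FaDu AfaR replicate 2 and to 5 without FaDu ErlR replicate 2, and in both cases COL16A1, COL18A1, COL1A2 and COL5A3 were lost.

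Type IV collagen is built from 6 chains encoded as head-to-head gene pairs, and COL4A1 and COL4A2 form the trimer found in nearly all basement membranes. Both genes lie on chromosome 13, COL4A1 at chr13:110148963-110307149 on the minus strand and COL4A2 at chr13:110305812-110513027 on the plus strand of GRCh38. In the RefSeq annotation of GRCh38.p14, 126 bases part their nearest starts. That interval, chr13:110307158-110307283, is shown on the plus strand because the pair moved together; capitals mark a CCAAT box (CCAAT or ATTGG) and a GC box (GGGCGG or CCGCCC).
COL4A1-COL4A2: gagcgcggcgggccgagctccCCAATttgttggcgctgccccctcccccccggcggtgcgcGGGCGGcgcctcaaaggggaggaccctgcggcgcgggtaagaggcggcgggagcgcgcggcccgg
Of 35116 RefSeq promoter windows cut to 126 bases, 34.6% held a GC box and 21.1% a CCAAT box on either strand. Neither the E2 box (CACCTG), which 8.74% held, nor the AP-1 site (TGANTCA) nor the TATA box (TATAAA) occurs in this interval, and the motifs found do not overlap.

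In FaDu cells, COL4A1 was at 21.1 and 31.4 CPM in parental, 72.1 and 74.3 CPM in AfaR and 32.4 and 34.5 CPM in ErlR libraries. COL4A2 was at 74.8 and 104 CPM, 206 and 227 CPM, and 99.6 and 123 CPM in the same groups. Both AfaR libraries lay above all other FaDu libraries for both genes. FaDu AfaR cells differed from parental cells by a log2 fold change of 1.46 (SE 0.18, adjusted p = 0.00257 by edgeR) for COL4A1 and 1.26 (SE 0.17, adjusted p = 0.00349) for COL4A2.

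In Cal27 cells the pair was high already in parental cells. COL4A1 was at 136 and 128 CPM in parental, 134 and 124 CPM in AfaR and 61.3 and 70.8 CPM in ErlR libraries. COL4A2 was at 370 and 406 CPM, 400 and 342 CPM, and 253 and 255 CPM in the same groups. AfaR and parental levels overlapped, and the ErlR libraries lay below both. In Cal27 ErlR cells the log2 fold change was -1.02 (SE 0.13, adjusted p = 0.000881 by edgeR) for COL4A1 and -0.63 (SE 0.14, adjusted p = 0.00832) for COL4A2, the second under the limit of 1 on its size. Per kilobase of exon, the ratio of COL4A1 to COL4A2 was 0.257 to 0.392 in the 12 libraries. The AfaR effect differed between the lines, FaDu minus Cal27, by 1.52 for COL4A1 and 1.34 for COL4A2.

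COL4A5 and COL4A6 are neighbours on the X chromosome and are transcribed away from each other. COL4A5 was at 6.12 and 9.93 CPM in FaDu parental, 14.3 and 16.6 CPM in AfaR and 10.0 and 10.0 CPM in ErlR libraries. In Cal27 cells it was at 20.4 and 23.6 CPM in parental, 57.3 and 38.4 CPM in AfaR and 18.8 and 18.7 CPM in ErlR libraries. The AfaR libraries were the highest of each line. COL4A5 rose in Cal27 AfaR cells by 1.12 (SE 0.20, adjusted p = 0.00224 by edgeR), and in FaDu AfaR cells its log2 fold change was 0.93 with an adjusted p of 0.0295 by edgeR.

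COL4A6 showed another pattern. It was at 1.60 and 1.82 CPM in FaDu parental, 4.80 and 5.64 CPM in AfaR and 5.37 and 7.78 CPM in ErlR libraries, so that both resistant groups lay above the parental group. In Cal27 cells it was at 9.84 and 9.63 CPM in parental, 10.5 and 7.43 CPM in AfaR and 20.1 and 13.4 CPM in ErlR libraries. In FaDu cells its log2 fold change was 1.59 (SE 0.30) for AfaR and 1.93 (SE 0.30) for ErlR, and in Cal27 cells it was -0.12 and 0.76, neither of which was called. The ratio of COL4A5 to COL4A6 per kilobase was 2.20 and 2.61 in Cal27 parental, 5.82 and 5.49 in AfaR and 0.995 and 1.48 in ErlR libraries, with no overlap between the groups. COL4A4, a chain of the specialised basement membrane of the kidney, stayed below 1 CPM, with 34 counts in FaDu AfaR against 6 in parental cells, a ratio of 5.03 (95% exact interval 2.09 to 14.6, counting error only), and COL4A3 was not tested. COL4A4 passed the filter on low counts through the AfaR libraries, so it had to differ.

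COL5A1 had the highest mean CPM of the fibrillar class in Cal27 parental and AfaR cells, and COL27A1 had it in the other 4 groups. Per kilobase of exon, the mean of COL5A1 exceeded that of COL27A1 also in FaDu AfaR cells (0.854 against 0.758 CPM per kb). The same held in Cal27 ErlR cells (1.17 against 1.06 CPM per kb). In both of these groups the order held in replicate 2 and was reversed in replicate 1. The COL5A1 chain of type V collagen helps to start fibrils and set their width. COL5A1 (ENSG00000130635) lies at chr9:134641774-134844843 on the plus strand of GRCh38. It was at 63.1 and 92.3 CPM in Cal27 parental, 904 and 774 CPM in AfaR and 10.9 and 15.3 CPM in ErlR libraries, with no overlap among the groups. Against parental cells the log2 fold change was 3.43 (SE 0.23, adjusted p = 9.14e-06 by edgeR) in AfaR and -2.60 (SE 0.23, adjusted p = 0.000128) in ErlR cells. Per kilobase it was the highest collagen of Cal27 AfaR cells, at a mean of 75.0 CPM per kb against 46.3 for COL6A1, the next. In FaDu cells COL5A1 was low, at 1.94 and 3.07 CPM in parental, 5.82 and 13.3 CPM in AfaR and 3.13 and 6.21 CPM in ErlR libraries. It rose in FaDu AfaR cells by 1.92 (SE 0.46, adjusted p = 0.0239 by edgeR), while in FaDu ErlR cells, which overlapped with AfaR, it was not called.

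The 250 bases before a RefSeq start of COL5A1, chr9:134641553-134641802 on the plus strand of GRCh38.p14, are shown because this gene had the highest CPM of the fibrillar class in Cal27 AfaR cells; capitals mark GC boxes, of which it holds 2, both as CCGCCC.
COL5A1: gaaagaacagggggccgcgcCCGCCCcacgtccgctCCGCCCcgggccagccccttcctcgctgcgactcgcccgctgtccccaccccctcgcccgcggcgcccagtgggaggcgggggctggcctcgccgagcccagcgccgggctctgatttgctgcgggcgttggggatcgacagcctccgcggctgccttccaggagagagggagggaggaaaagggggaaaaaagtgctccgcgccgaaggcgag
A GC box on either strand was present in 42.6% of the 35116 windows of this length. The searches for CCAAT, TATA and E2 boxes and AP-1 sites found none in this window.

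COL1A1, the main chain of type I collagen, followed the same order in Cal27 cells. It was at 25.4 and 35.5 CPM in parental, 266 and 273 CPM in AfaR and 3.58 and 8.07 CPM in ErlR libraries. It changed by 3.15 (SE 0.28, adjusted p = 4.74e-05 by edgeR) in AfaR and -2.41 (SE 0.31, adjusted p = 0.000816) in ErlR cells on the log2 scale, again without overlap. In FaDu cells COL1A1 stayed between 2.82 and 7.19 CPM in all 6 libraries and was not called.

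**Figure D4:**
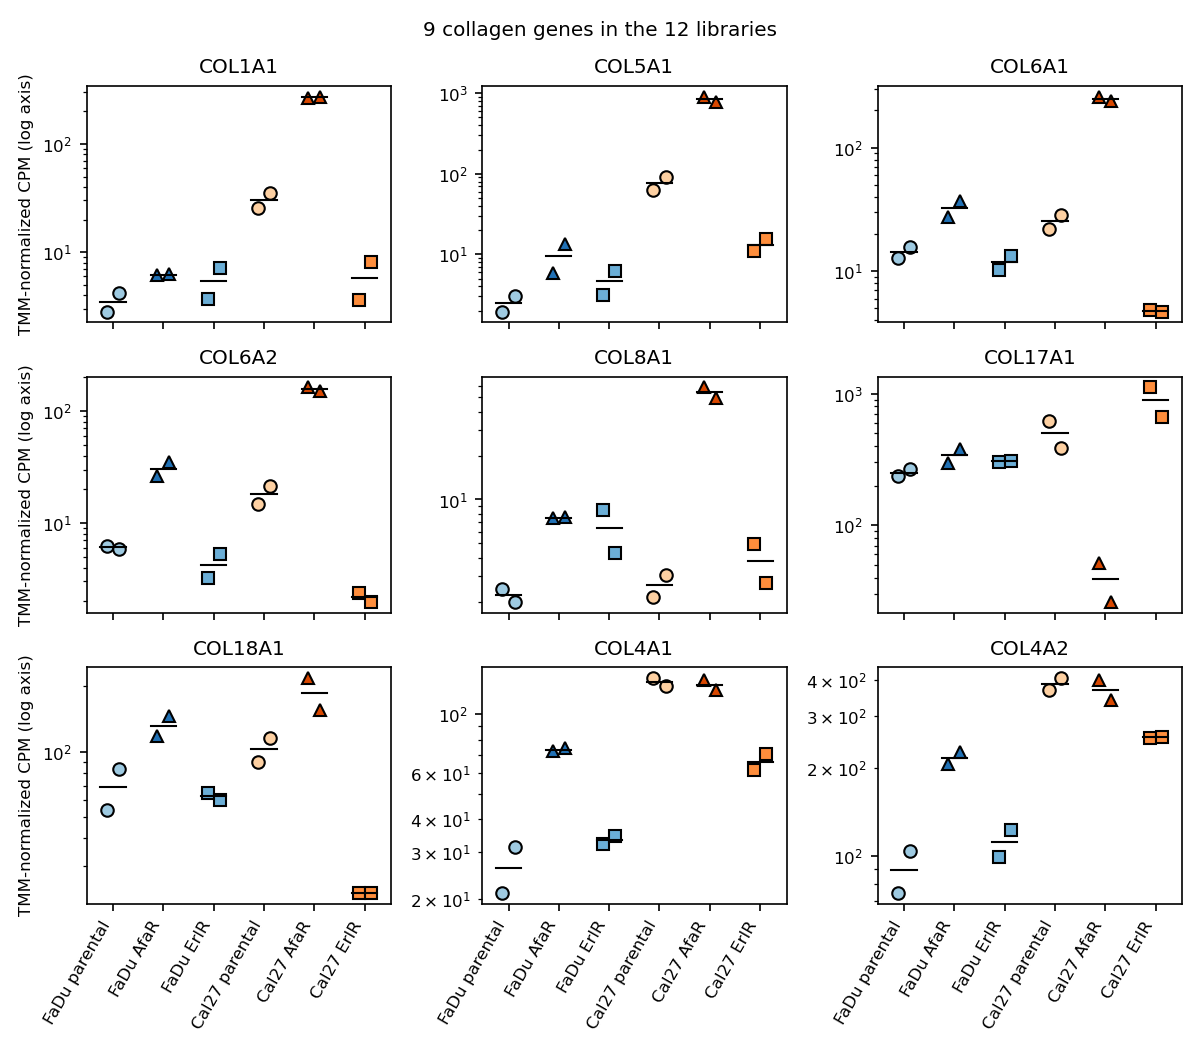
TMM-normalized CPM (log axis, scaled separately for each gene) of 9 collagen genes in the 6 groups; each symbol is 1 of 2 libraries (circles parental, triangles AfaR, squares ErlR) and the black line is the group mean. COL1A1, COL5A1, COL6A1 and COL6A2 order Cal27 cells as AfaR, parental, ErlR, COL17A1 orders them in reverse, and COL4A1 and COL4A2 are highest in FaDu cells in both AfaR libraries.

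The partner chains of these genes did not show the same sizes of change. COL1A2, which joins COL1A1 in the type I trimer, was at 1.57 and 2.80 CPM in Cal27 parental and at 4.16 and 4.06 CPM in AfaR libraries, a log2 fold change of 0.91 (SE 0.39) that was not called, and it fell in ErlR cells (-1.51, SE 0.45). The ratio of COL1A1 to COL1A2 per kilobase was 18.3 and 14.4 in Cal27 parental, 72.6 and 76.4 in AfaR and 7.07 and 9.37 in ErlR libraries. COL5A2, the usual partner of COL5A1, ranged from 1.09 to 3.60 CPM over the 12 libraries and was not called in any comparison with parental cells. The ratio of COL5A1 to COL5A2 was therefore 165 and 138 in Cal27 AfaR against 15.8 and 18.7 in parental and 6.40 and 4.57 in ErlR libraries. COL5A3, a further type V chain, had 178 counts in Cal27 AfaR against 4 in parental cells, a ratio of 42.7 (95% exact interval 16.4 to 158, counting error only). It passed the filter on low counts through the AfaR libraries, so it had to differ. Of its exon bases, 4% overlap a gene on the opposite strand.

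**Figure D5:**
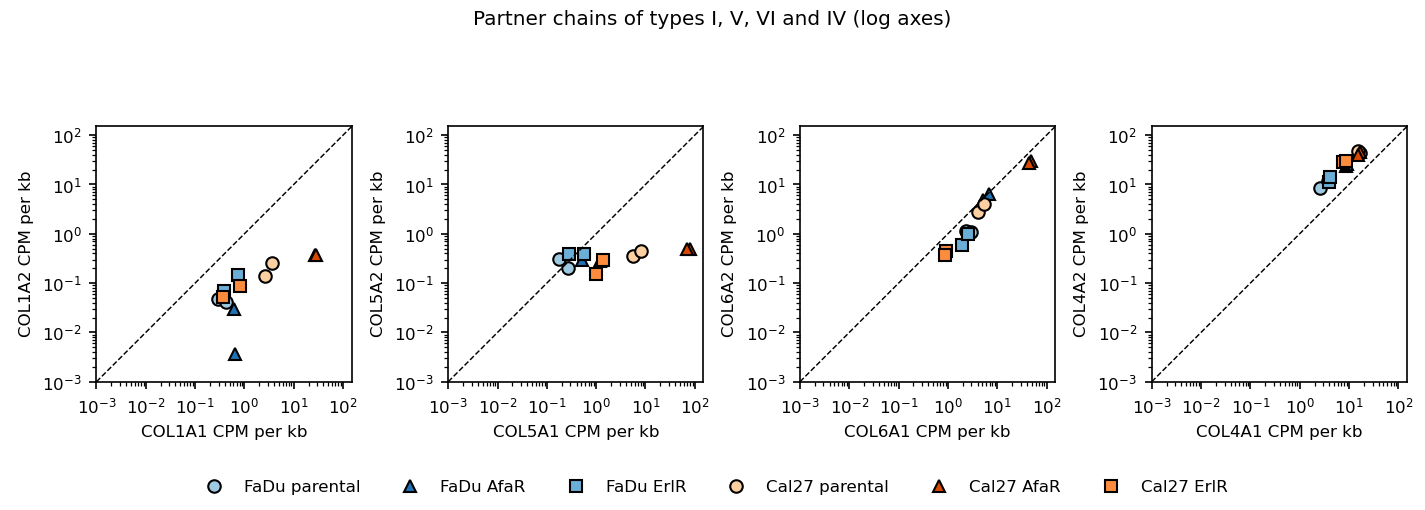
CPM per kilobase of exon (log axes) of partner chains of types I, V, VI and IV in the 12 libraries; each symbol is a library and the dashed line marks equal levels. COL5A1 spreads along the horizontal axis while COL5A2 moves little, COL1A1 in the Cal27 AfaR libraries lies far to the right of the other libraries, and the lowest COL1A2 point is a FaDu AfaR library, whereas COL6A1 with COL6A2 and COL4A1 with COL4A2 lie along a diagonal.

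Of the other fibrillar chains, COL11A2 had 109 counts in Cal27 AfaR against 8 in parental cells, a ratio of 13.1 (95% exact interval 6.41 to 31.1, counting error only). It passed the filter on low counts through the AfaR libraries, so it had to differ. COL11A1 was at 0 in both Cal27 AfaR libraries and between 0.437 and 1.12 CPM in FaDu cells. COL27A1, a fibrillar chain known from cartilage, lay between 9.14 and 23.9 CPM over the 12 libraries. For AfaR and ErlR its log2 fold changes were -0.75 and -0.82 in FaDu cells and -0.38 and -0.68 in Cal27 cells, under the limit on size in each. COL3A1, the type III chain abundant in stroma, did not exceed 1.28 CPM in any library.

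Type VI collagen forms beaded microfilaments from the chains of COL6A1, COL6A2 and COL6A3. COL6A1 and COL6A2 lie in the same direction on chromosome 21, at chr21:45981737-46005050 and chr21:46098097-46132849. COL6A1 was at 22.0 and 28.6 CPM in Cal27 parental, 258 and 237 CPM in AfaR and 4.86 and 4.71 CPM in ErlR libraries. COL6A2 was at 14.8 and 21.5 CPM, 163 and 149 CPM, and 2.36 and 1.96 CPM in the same groups. The groups did not overlap for either gene. AfaR cells had a log2 fold change of 3.29 (SE 0.16, adjusted p = 2.83e-06 by edgeR) for COL6A1 and 3.10 (SE 0.19, adjusted p = 6.98e-06) for COL6A2, and ErlR cells one of -2.43 (SE 0.18) and -3.10 (SE 0.23).

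FaDu AfaR cells also had more of both chains. COL6A1 was at 12.7 and 15.7 CPM in FaDu parental, 27.7 and 37.1 CPM in AfaR and 10.2 and 13.3 CPM in ErlR libraries. COL6A2 was at 6.26 and 5.82 CPM, 26.2 and 34.9 CPM, and 3.20 and 5.30 CPM in the same groups. The AfaR libraries lay above all other FaDu libraries for both genes. Against parental cells AfaR cells had a log2 fold change of 1.17 (SE 0.20, adjusted p = 0.00795 by edgeR) for COL6A1 and 2.32 (SE 0.24, adjusted p = 0.00132) for COL6A2. COL6A2 was the 1 collagen that was called in FaDu AfaR cells under each alternative tried, and the ratio of COL6A1 to COL6A2 per kilobase was 1.06 and 1.07 there against 2.04 and 2.72 in parental libraries.

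The 250 bases before the RefSeq start of COL6A2, chr21:46097862-46098111 on the plus strand of GRCh38.p14, are shown because of these calls; capitals mark 4 GC boxes (1 of them as CCGCCC) and 1 TATA box, none overlapping.
COL6A2: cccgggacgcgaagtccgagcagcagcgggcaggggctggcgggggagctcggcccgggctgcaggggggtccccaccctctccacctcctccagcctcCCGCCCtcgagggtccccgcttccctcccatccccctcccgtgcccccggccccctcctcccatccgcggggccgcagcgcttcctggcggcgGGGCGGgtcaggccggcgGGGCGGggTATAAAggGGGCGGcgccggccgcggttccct
A TATA box on either strand was present in 10.7% of windows of this length. No CCAAT box, E2 box or AP-1 site was found in it.

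COL6A3, the longest type VI chain, remained far below its partners. It had 127 counts over the Cal27 AfaR libraries, at 5.29 and 1.68 CPM, against 1 count in parental libraries. The ratio was 122 (95% exact interval 21.5 to 4852, counting error only, without the spread between replicates). COL6A3 passed the filter on low counts through the AfaR libraries, so it had to differ. Without Cal27 parental replicate 1 its fitted log2 fold change moved from 6.59 to 8.90. Even in Cal27 AfaR cells the ratio of COL6A1 to COL6A3 per kilobase was 179 and 517. COL6A5 and COL6A6 were not tested in either line.

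COL17A1 (ENSG00000065618), the transmembrane collagen of the hemidesmosome, lies at chr10:104031286-104086002 on the minus strand of GRCh38. It was at 620 and 387 CPM in Cal27 parental, 51.6 and 25.9 CPM in AfaR and 1115 and 664 CPM in ErlR libraries. The AfaR libraries lay below all others, and the ErlR libraries lay above both parental libraries. It fell in AfaR cells, with a log2 fold change of -3.69 (SE 0.38, adjusted p = 0.000109 by edgeR), and the log2 fold change of 0.79 (SE 0.34) in ErlR cells was not called. In FaDu cells it ranged from 235 and 266 CPM in parental to 296 and 381 CPM in AfaR and 301 and 310 CPM in ErlR libraries, without a call.

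The 250 bases before the RefSeq start of COL17A1, chr10:104085881-104086130 on the minus strand of GRCh38.p14, are shown for contrast, since this gene moved against the fibrillar chains; capitals mark a TATA box and a CCAAT box in reverse (ATTGG).
COL17A1: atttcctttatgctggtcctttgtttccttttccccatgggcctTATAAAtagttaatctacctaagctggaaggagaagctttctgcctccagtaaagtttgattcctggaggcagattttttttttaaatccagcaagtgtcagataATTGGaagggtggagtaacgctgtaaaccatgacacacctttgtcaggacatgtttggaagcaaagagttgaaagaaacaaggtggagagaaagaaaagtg
Its GC content was 40.4%, against 74.0% for the COL5A1 window and 79.6% for the COL6A2 window. A CCAAT box on either strand was present in 32.0% of windows, and no GC box, E2 box or AP-1 site was found here.

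COL8A1, a short-chain collagen of networks around vessels and in the cornea, rose in 3 of the 4 resistant groups. It was at 2.43 and 1.98 CPM in FaDu parental, 7.47 and 7.57 CPM in AfaR and 8.50 and 4.32 CPM in ErlR libraries. In Cal27 cells it was at 2.16 and 3.03 CPM in parental, 58.5 and 49.6 CPM in AfaR and 4.92 and 2.69 CPM in ErlR libraries, the last overlapping with parental cells. COL8A1 rose by 1.75 (SE 0.34) in FaDu AfaR cells, by 1.53 (SE 0.35) in FaDu ErlR cells and by 4.38 (SE 0.29, adjusted p = 9.09e-06 by edgeR) in Cal27 AfaR cells on the log2 scale. Its relative COL8A2 was at 9.49 and 9.28 CPM in Cal27 parental, 5.18 and 6.04 CPM in AfaR and 1.92 and 3.36 CPM in ErlR libraries, and it fell in ErlR cells (-1.85, SE 0.30).

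COL18A1, a multiplexin of basement membranes from which endostatin is cut, was at 90.1 and 116 CPM in Cal27 parental, 218 and 155 CPM in AfaR and 22.5 and 22.5 CPM in ErlR libraries. It fell in ErlR cells (log2 fold change -2.22, SE 0.20, adjusted p = 0.000128 by edgeR), and in AfaR cells its log2 fold change was 0.86 (SE 0.19), under the limit on size. In FaDu cells it was at 54.0 and 83.5 CPM in parental, 118 and 146 CPM in AfaR and 64.8 and 59.9 CPM in ErlR libraries, with a log2 fold change of 0.92 in AfaR cells, also under the limit. SLC19A1 on the opposite strand covers 16.4% of its exon bases, and the strand setting of the counting is not given in the sources used here, so reads of the 2 genes cannot be told apart there.

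Of the FACIT collagens, which sit on fibril surfaces, COL12A1 was the highest, between 117 and 273 CPM in all 12 libraries, and was not called in any comparison with parental cells. COL9A3 was at 6.46 and 7.49 CPM in FaDu parental, 9.95 and 10.4 CPM in AfaR and 2.75 and 3.01 CPM in ErlR libraries. It fell in FaDu ErlR cells (log2 fold change -1.29, SE 0.23, adjusted p = 0.0233 by edgeR), and in Cal27 cells it ranged from 7.02 to 14.6 CPM. Its partner COL9A2 was at 5.01 and 9.45 CPM in Cal27 parental, 0.972 and 1.57 CPM in AfaR and 0.192 and 1.77 CPM in ErlR libraries. COL9A2 fell in AfaR (-2.51, SE 0.65) and in ErlR cells (-2.88, SE 0.68), and without Cal27 ErlR replicate 2 the latter value was -5.18. COL7A1, the chain of the anchoring fibrils, was at 37.5 and 36.3 CPM in Cal27 parental, 69.9 and 65.1 CPM in AfaR and 23.8 and 21.8 CPM in ErlR libraries, with log2 fold changes of 0.87 and -0.72 that stayed under the limit on size. COL13A1, a transmembrane collagen of cell contacts, fell in Cal27 ErlR cells (log2 fold change -3.37, SE 0.65, adjusted p = 0.00556 by edgeR).

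Collagens need a dedicated set of enzymes and receptors, and 44 such genes were examined: 18 for hydroxylation and folding, 11 for export and cleavage of procollagen, 5 for crosslinking and 10 receptors. In Cal27 AfaR cells, 16 of the 41 tested were higher and 1 was lower, where 11.5% of all genes were called higher and 8.06% lower. The largest changes were those of ADAMTS2 (5.69, SE 0.57) and ADAMTS14 (5.09, SE 0.48), which cleave the amino end of procollagen, MRC2 (4.25, SE 0.27), an uptake receptor, ITGA11 (3.84, SE 0.67), an integrin chain that binds fibrillar collagen, and ADAMTS3 (3.26, SE 0.38). Of the 16, ADAMTS2, ADAMTS14, ITGA11, COLGALT2 and P3H3 passed the filter on low counts through the AfaR libraries, so they had to differ. By list, 6 of 17 tested genes of hydroxylation and folding, 5 of 11 of export and cleavage, 2 of 5 of crosslinking and 3 of 8 receptors were higher. The median log2 fold change of the 41 genes was 0.69, against 0.37 for the collagens and -0.00 for all genes.

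In Cal27 ErlR cells, 5 of the 41 genes were lower and 1 was higher, which is near the 9.92% lower and 3.56% higher among all genes. The crosslinking enzymes held 3 of the 5, LOXL4 (-7.31, SE 0.89), LOX (-2.59, SE 0.45) and LOXL1 (-2.28, SE 0.54), while LOXL3 of the same family was higher (1.12, SE 0.29). The parental libraries differed, with LOXL4 at 14.7 and 65.5 CPM against 0.128 and 0.367 CPM in ErlR libraries. LOX was at 16.5 and 47.0 CPM against 4.86 and 5.87 CPM. Enzyme and receptor genes were not examined with libraries left out. PLOD1, a lysyl hydroxylase, was also lower (-1.20, SE 0.20), as was MIA2 (-1.05, SE 0.25), which acts in export from the endoplasmic reticulum. In FaDu AfaR cells 4 of 37 tested genes were higher and 0 lower, where 6.48% of all genes were called higher and 0.954% lower. They were the procollagen proteinases TLL1 (3.76, SE 0.95) and ADAMTS3 (1.55, SE 0.46), the crosslinking enzyme LOX (2.22, SE 0.53) and the collagen receptor chain ITGA1 (1.50, SE 0.43). TLL1 passed the filter on low counts through the AfaR libraries, so it had to differ. In FaDu ErlR cells edgeR called 0 of 37, with 2 higher and 1 lower at an unadjusted p under 0.05 and the same limit on size, and DESeq2 called 0 higher and 1 lower.

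The difference between the lines in the response to each selection was tested as an interaction over all 12 libraries. For afatinib, 11 of 30 tested collagens differed between FaDu and Cal27 cells, where 7.57% of all 16240 genes were called with the higher value in FaDu, 4.76% with the lower value and 12.3% in either direction. COL17A1, COL11A1 and the type IV genes COL4A1, COL4A2 and COL4A6 had the higher value in FaDu cells, while COL1A1, COL5A3, COL11A2, COL6A1, COL6A3 and COL8A1 had the higher value in Cal27 cells. COL11A2 and COL6A3 passed the filter on low counts only through the Cal27 AfaR libraries, so they had to differ. The calls of COL11A1 and COL11A2 were not stable when 1 library was left out. Their differences then ranged from 5.22 to 5.78 for COL11A1 and from -5.56 to -3.05 for COL11A2. COL5A1 (-1.49, SE 0.53, adjusted p = 0.0724 by edgeR) and COL6A2 (-0.76, SE 0.31, adjusted p = 0.108) missed the threshold. For erlotinib, 10 of 30 differed, where 7.51% of all genes were called with the higher value in FaDu, 3.36% with the lower value and 10.9% in either direction, and 9 of the 10 had the higher value in FaDu cells, among them COL5A1 (3.47, SE 0.57), COL1A1 (3.03, SE 0.49) and COL6A2 (2.56, SE 0.38).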

How the data were processed

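The deposited files used are the read counts per gene of 12 libraries. By the submitters' processing notes and the study's methods, the authors trimmed reads with Trimmomatic 0.36, aligned them to GRCh38 with STAR 2.5.2b and counted them with featureCounts of Subread 1.5.2; the strand setting is not given in the sources used here. The authors' 4 normalized tables were not used, and 0 columns lacked a sample. Gene symbols came from GENCODE 44 by gene identifier (56948 of 58051 matched, on the same chromosome).

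Counts were tested in R 4.3.3 with edgeR 4.0.16 (TMM, filterByExpr, quasi-likelihood test, Benjamini-Hochberg adjustment over all genes tested) on the 6 libraries of each line, or on all 12 for differences between lines. Calls needed an adjusted p under 0.05 and more than 1 in size on the log2 scale. Biological variation between replicates came to a coefficient of 14.5% (FaDu) and 15.3% (Cal27), and replicates differed by more than counting noise in each group. Total counts were 16334937 to 23399259 per library. Groups and replicates followed the labels. DESeq2 1.42.0 on 4 libraries, other scaling, filters, fits and omitted libraries were alternatives. Steps were tested on simulated data.

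Values in each library are given for collagens called in a comparison with parental cells and with a group mean of at least 5 CPM. Of the enzyme and receptor lists, up to 5 called genes with the largest change are named, and further genes where a result turns on them. Values given per kilobase use the merged exon length. Sums, shares and the highest gene of a class are in CPM, without correction for gene length. Promoter sequences are from RefSeq (GRCh38.p14), with a window for 32 of the 44 genes. Intervals at 95% are exact and cover counting error only. The genes, lists and classes were chosen with earlier results of these data known.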

Additional observations from a re-analysis of the deposited data

Results flagged for a closer look

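The log2 fold change against parental cells differed between the lines, by an interaction term in edgeR with adjusted p under 0.05 and more than 1 in size, for 11 collagens in afatinib-resistant and 10 in erlotinib-resistant cells. Values are FaDu minus Cal27 on the log2 scale. For afatinib-resistant cells they were -2.32 for COL1A1, -6.27 for COL5A3, 5.52 for COL11A1, -4.05 for COL11A2, 1.52 for COL4A1, 1.34 for COL4A2, 1.73 for COL4A6, -2.10 for COL6A1, -8.78 for COL6A3, -2.61 for COL8A1 and 4.14 for COL17A1. The values of COL11A2 and COL6A3 had to differ, since these genes passed the filter on low counts only through the Cal27 AfaR libraries. COL11A1 had no count in either Cal27 AfaR library, so its value depends on the prior count and is no bound, and it was lost with each of the 8 libraries left out. COL11A2 was lost with 6 of the 8 omissions (it stood only without FaDu parental replicate 1 or FaDu AfaR replicate 2), and COL6A3 without FaDu parental replicate 1. The other 8 were called in each omission.

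For erlotinib-resistant cells the differences were 3.03 for COL1A1, 2.73 for COL1A2, 2.46 for COL3A1, 3.47 for COL5A1, 1.35 for COL4A1, 2.14 for COL6A1, 2.56 for COL6A2, -1.68 for COL9A3, 2.06 for COL18A1 and 2.74 for COL28A1. COL1A2 was called in 3 of 8 omissions (FaDu ErlR replicate 1, Cal27 parental replicate 1 or Cal27 ErlR replicate 2), COL3A1 in 1 (Cal27 parental replicate 1), and COL28A1 was lost without Cal27 parental replicate 2. The other 7 were called in each omission.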

How the results depend on the processing

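Of 32 calls against parental cells, 16 kept their direction and side of the thresholds in every alternative tried (19 apart from glmTreat, which tests against a fold change of 2), and 0 reversed. Under glmTreat the calls numbered 1 higher in FaDu AfaR, 0 higher and 0 lower in FaDu ErlR and 6 lower in Cal27 ErlR cells. In Cal27 AfaR cells 9 of the 11 calls stood under it, 1 of them lower, and COL4A5 and COL9A2 were lost. That test asks for more than the limit on the estimate. In FaDu ErlR cells, ERCC scaling gave 9 higher and 0 lower, no filter on low counts 4 and 3, a fit on 4 libraries 1 higher, and DESeq2 2 lower. The cause was not tested, and the shares of all genes called under these alternatives were not taken. ERCC scaling moved the median of all genes to 0.18 (AfaR) and 0.49 (ErlR) in FaDu cells and to 0.01 and 0.00 in Cal27 cells. At this depth 14 collagens could not be tested in either line.

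Leaving out 1 library at a time gave 3 to 10 higher in FaDu AfaR, 0 to 2 higher and 0 to 0 lower in FaDu ErlR, 1 to 2 lower in Cal27 AfaR and 0 to 2 higher in Cal27 ErlR cells, and 4 to 10 differing between FaDu AfaR and FaDu ErlR cells. Omissions for differences between lines and between resistant groups were chosen after seeing the data. Same-numbered replicates were not paired by the labels, and their deviations correlated at -0.10 to 0.10 in FaDu and -0.20 to 0.10 in Cal27 cells. The fit with the replicate number as a block gave 1 higher and 2 lower in FaDu ErlR cells and 7 in place of 8 higher in FaDu AfaR cells, where COL4A4 was lost.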

Other observations

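The stretch of chromosome 21 from COL18A1 to COL6A2, with 500000 bases on each side, held 22 other tested genes in FaDu and 25 in Cal27 cells. Their median log2 fold change was 0.04 (AfaR) and -0.14 (ErlR) in FaDu cells and -0.54 and -0.35 in Cal27 cells, where COL6A1 and COL6A2 were at 3.29 and 3.10 in Cal27 AfaR and at -2.43 and -3.10 in Cal27 ErlR cells. These other genes ranged from -0.98 to 2.17 in FaDu AfaR cells (1 called higher, 0 lower). In Cal27 AfaR cells they ranged from -2.63 to 4.16 (3 called higher, 4 lower). The highest values were those of PCBP3 in FaDu AfaR and ENSG00000274248 in Cal27 AfaR cells, both between COL18A1 and COL6A1. In each ErlR comparison 0 were called higher and 1 lower. The part of these genes in the collagen result was not tested.

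Without the filter on low counts, COL25A1 was called higher in FaDu AfaR cells and COL15A1 in Cal27 AfaR cells; their highest levels were 0.679 and 0.864 CPM. The starts of COL4A3 and COL4A4, the other head-to-head pair on chromosome 2, lie 418 bases apart in RefSeq, and both genes stayed below 1 CPM in all 12 libraries.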
